A study of Mus musculus with 13 samples.

Results

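Potassium channels form a large and varied family of membrane proteins, and the set described here holds every gene whose symbol starts with Kcn and that was counted in all 13 libraries. Of 99 such symbols, 3 were left out because they name antisense or overlapping transcripts (Kcnab3os, Kcnd3os and Kcnq1ot1), which leaves 96 members of the 22682 symbols that all tables share. Of these, 2 (Kcnmb4os1 and Kcnmb4os2) are antisense RNAs that stayed in only because their symbols end in a digit. They are described apart from the channel genes but are counted as members in the totals, shares and medians below. Kcnmb4os2 is among the 70 members of the genotype test, and Kcnmb4os1 among the 23 members under 1 CPM in every library. The members fall into 20 subfamilies by the letters after Kcn, of which Kcnj (15 members) and Kcnk (14 members) hold the most.

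The samples were medial habenula of adult mice (over 8 weeks of age), and all carried the Chat-TRAP DW167 transgene, in which cholinergic cells tag their ribosomes with GFP so that anti-GFP beads recover the mRNA under translation (IP). There were 6 IP libraries from Chat-TRAP mice that carry no Gpr151 knockout (called wild type here), 6 IP libraries from Gpr151-KO::Chat-TRAP mice (knockout), and 1 library of total homogenate from Chat-TRAP mice (input). Each library pooled 4 mice, or 3 for 1 library of each genotype, so replicates were separate pools of animals. The labels name no drug treatment, while names of the deposited tables mention saline and, for the input, saccharin, and no source used here says whether the input animals were handled like the IP animals.

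The pores of potassium channels are built from alpha subunits that share a short selectivity filter, the stretch that lets potassium but not sodium pass. Voltage-gated members (Kcna to Kcnd, Kcnh and Kcnq) shape the action potential and the interval between spikes, calcium-gated members (Kcnma1, Kcnn) follow firing with an outward current, inward rectifiers (Kcnj) and two-pore leak channels (Kcnk) set the resting potential, and auxiliary subunits (Kcnip, Kcnab, Kcne, Kcnmb) alter gating or delivery to the membrane. Medial habenula neurons are known for firing spontaneously, and channels of this family set such pacing in many neurons.

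The filter codons of 5 alpha subunits that the results below describe are shown first. They come from members far above the input and from Kcnb2, which lay below it. The codons were found by a search for a set run of residues, so their likeness follows from the search. No conclusion about members above or below the input is drawn from it. Each line is coding-strand sequence from GENCODE M21 (GRCm38), 45 bases, 5′ to 3′, and the capitals mark the 5 codons of the filter.
Kcnma1: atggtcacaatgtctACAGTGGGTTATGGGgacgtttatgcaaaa
Kcnd2: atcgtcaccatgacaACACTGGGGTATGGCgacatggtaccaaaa
Kcnb2: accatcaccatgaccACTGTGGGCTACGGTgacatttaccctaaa
Kcng4: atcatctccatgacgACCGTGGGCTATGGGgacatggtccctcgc
Kcnh8: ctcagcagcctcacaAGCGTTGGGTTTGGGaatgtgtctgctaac

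The codons were found by translating the longest coding transcript of each gene and looking for a serine, threonine or cysteine, then a valine, isoleucine or leucine, a glycine, a tyrosine, phenylalanine or leucine, and a glycine. Of 94 members with a coding transcript, 80 held such a run, against 1.52% of 21576 coding genes searched in the same way. It was found in 12 of the 14 Kcnk members at 2 or more places, these being the channels whose subunit carries a pair of pore loops. None of the Kcnip, Kcne or Kcnmb genes held it. All 3 Kcnab genes did, although their products are cytosolic beta subunits that form no pore, so a match of these letters alone does not mark a filter. Kcnma1 lies on chromosome 14 from 23289431 to 24014491, Kcnd2 on chromosome 6 from 21215503 to 21729805 and Kcng4 on chromosome 8 from 119623854 to 119635680 (GRCm38, whole genes).

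Of the 96 members, 23 stayed under 1 CPM (each count scaled to the library's total over genes) in every library, among them 4 of the 5 Kcne genes, 5 of the 14 Kcnk genes and 4 of the 15 Kcnj genes. The gene counts per IP library ran from 28375912 to 64388596, and a count of 0 allowed up to 0.106 CPM in the shallowest IP library, for counting error only. The members together took 5402 to 7510 CPM in a wild-type IP library, 5450 to 7202 CPM in a knockout IP library and 4348 CPM in the input. Exons of 24 members overlap a gene on the opposite strand, and no source used here states that strand was used in counting. Reads of such a gene and of its antisense partner could then not be told apart. Kcnma1, Kcnip4 and Kcnh7 are among those 24, whereas Kcnip1, Kcng4, Kcnd2, Kcnh8 and Kcnq3 are not.

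The targeted gene checked the labels: Gpr151 had 358 to 539 CPM in the wild-type IP libraries and 105 to 197 CPM in the knockout IP libraries, with no overlap. Transcripts of other cell types were present in every IP library to unequal degrees. A score of 59 glial and vascular markers (mean log2 of CPM plus 1) was 4.48 in the input, 1.93 to 3.45 in the wild-type IP libraries and 2.02 to 4.01 in the knockout IP libraries. Wild-type replicate 3 (library 1091) had the highest score of its genotype, and knockout replicates 3 (4.01) and 6 (3.69) the highest of theirs. Summed markers of GABAergic neurons were 619 CPM in the input and 21.9 to 186 CPM in the wild-type IP libraries, and those of oligodendrocytes were 2947 CPM against 160 to 856 CPM. Not every such sum fell. Choroid plexus and ependymal markers were 82.0 CPM in the input against 74.9 to 91.4 CPM. Thalamic neuron markers were 4659 against 3665 to 4752 CPM, and endothelial or mural markers 41.3 against 10.9 to 51.6 CPM. The thalamic list includes Calb2, which was also listed as a marker of medial habenula identity, so its sum does not measure thalamic RNA alone. By mean log2 of CPM plus 1, thalamic markers were 8.64 in the input and 7.11 to 8.37 in the wild-type IP libraries. Choroid plexus and ependymal markers were lower in IP by this measure, at 2.85 in the input and 1.09 to 1.58 in the wild-type IP libraries. Of these 9 markers, 2 were under 1 CPM in the input and 5 to 8 in each wild-type IP library. For endothelial or mural markers, the wild-type IP libraries lay on both sides of the input by this measure too. In the same libraries, 3 cholinergic markers (Chat, Slc18a3 and Slc5a7) summed to 588 to 1450 CPM against 68.1 CPM in the input. In such bulk samples, fewer cells of a type and less RNA per cell cannot be told apart.

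Ranked by level per kb of exon, so that genes of different length can be compared, Kcnip1 stood at the top of the family in wild-type IP with 395 ± 39.1 CPM per kb (SD, n = 6). It encodes a calcium-binding protein that joins A-type channels and alters their gating. Kcnma1, the pore of the large-conductance calcium-activated (BK) channel, followed with 145 ± 30.4 CPM per kb, and Kcnd2, an A-type pore, with 81.4 ± 16.7 CPM per kb. The lowest Kcnip1 library lay above the highest Kcnma1 library. Behind them came Kcnip3 (64.2 ± 7.79), Kcng4 (62.8 ± 8.58) and Kcna2 (60.5 ± 11.3 CPM per kb), whose ranges over the 6 libraries overlapped. Further down were Kcnn3 (44.6 ± 5.92), Kcnd3 (30.6 ± 3.54) and Kcnk1 (30.1 ± 5.94 CPM per kb). In the input the order was another one, with Kcnip4 (64.1 CPM per kb), Kcnc2 (53.3), Kcnn3 (44.6) and Kcna2 (40.8) at the top. Kcnip4 and Kcnc2 ranked 17 and 21 in wild-type IP, and Kcng4, ranked 5 in IP, ranked 28 in the input.

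**Figure D1:**
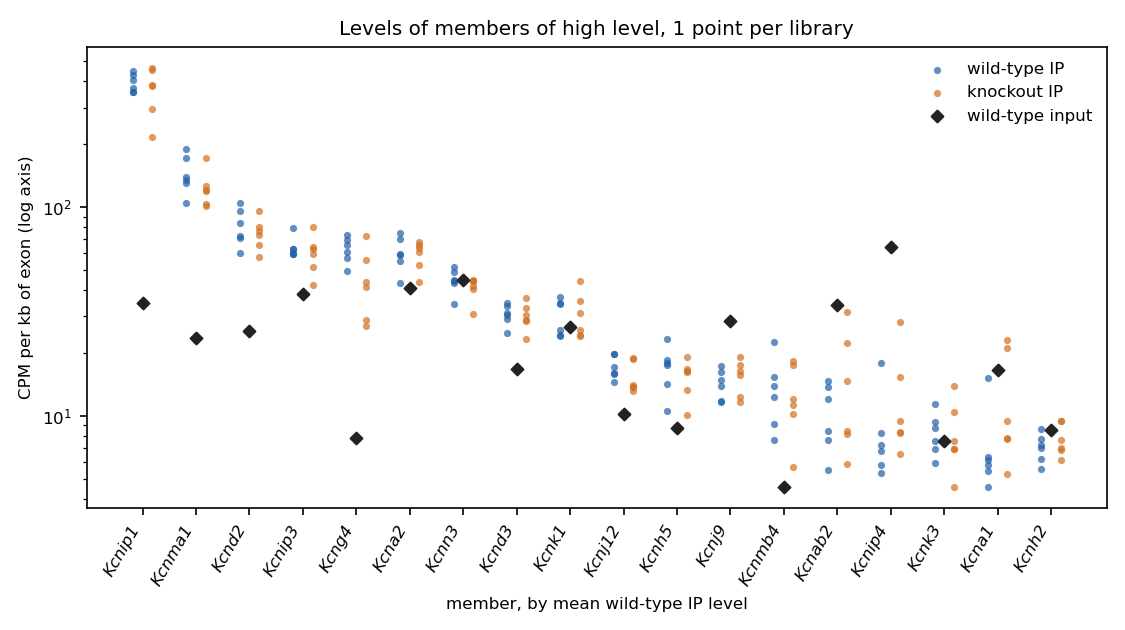
Level of 18 members of high level in CPM per kb of exon on a log axis, ordered by the wild-type IP mean, with 1 point per IP library (blue wild type, orange knockout) and a black diamond for the single input library. The blue points of Kcnip1, Kcnma1, Kcnd2 and Kcng4 lie far above their diamonds, whereas the diamond of Kcnip4 lies above all of its points.

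With a single input library, wild-type IP and input were compared by a rule of size: a member was called enriched where CPM plus 1 was 2-fold that of the input or more in each of the 6 libraries, and depleted where it was 2-fold lower or more in each. A level of 5 CPM, in the input or on average over the IP libraries, was reached by 54 members and not by 42. By this rule 6 members (11.1%) were enriched, against 5.83% of the 11131 genes compared, and 13 (24.1%) were depleted, against 8.33%. The median log2 ratio of the 54 members was -0.60, and that of all genes 0.11. There were 18 members above input in all 6 libraries, where 32.2% of all genes were, and 25 below input in all 6, where 27.6% of all genes were. Since 1 input gives no spread for its group, no p-value belongs to these calls. The input table also lacks the ribosomal RNA precursor Rn45s, whose share of the gene counts in IP was 2.25% to 12.6%, so the scaling sets the zero: leaving Rn45s out moved the median of all genes from 0.11 to 0.23, and scaling to the genes shared by all tables moved it to -0.07. The 6 enriched members were called under each of these scalings and under TMM. The depleted members numbered 10 with Rn45s left out (7.67% of all genes), where Kcnc4, Kcnd1 and Kcnj5 were no longer called. They numbered 14 under TMM (8.85% of all genes), where Kcnc4 and Kcnj5 were not called. With scaling to shared genes they numbered 20 (11.1% of all genes), among them all 13. Members with ratios close to 0, such as Kcnn3 and Kcnk1, lay on both sides of the input.

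**Figure D2:**
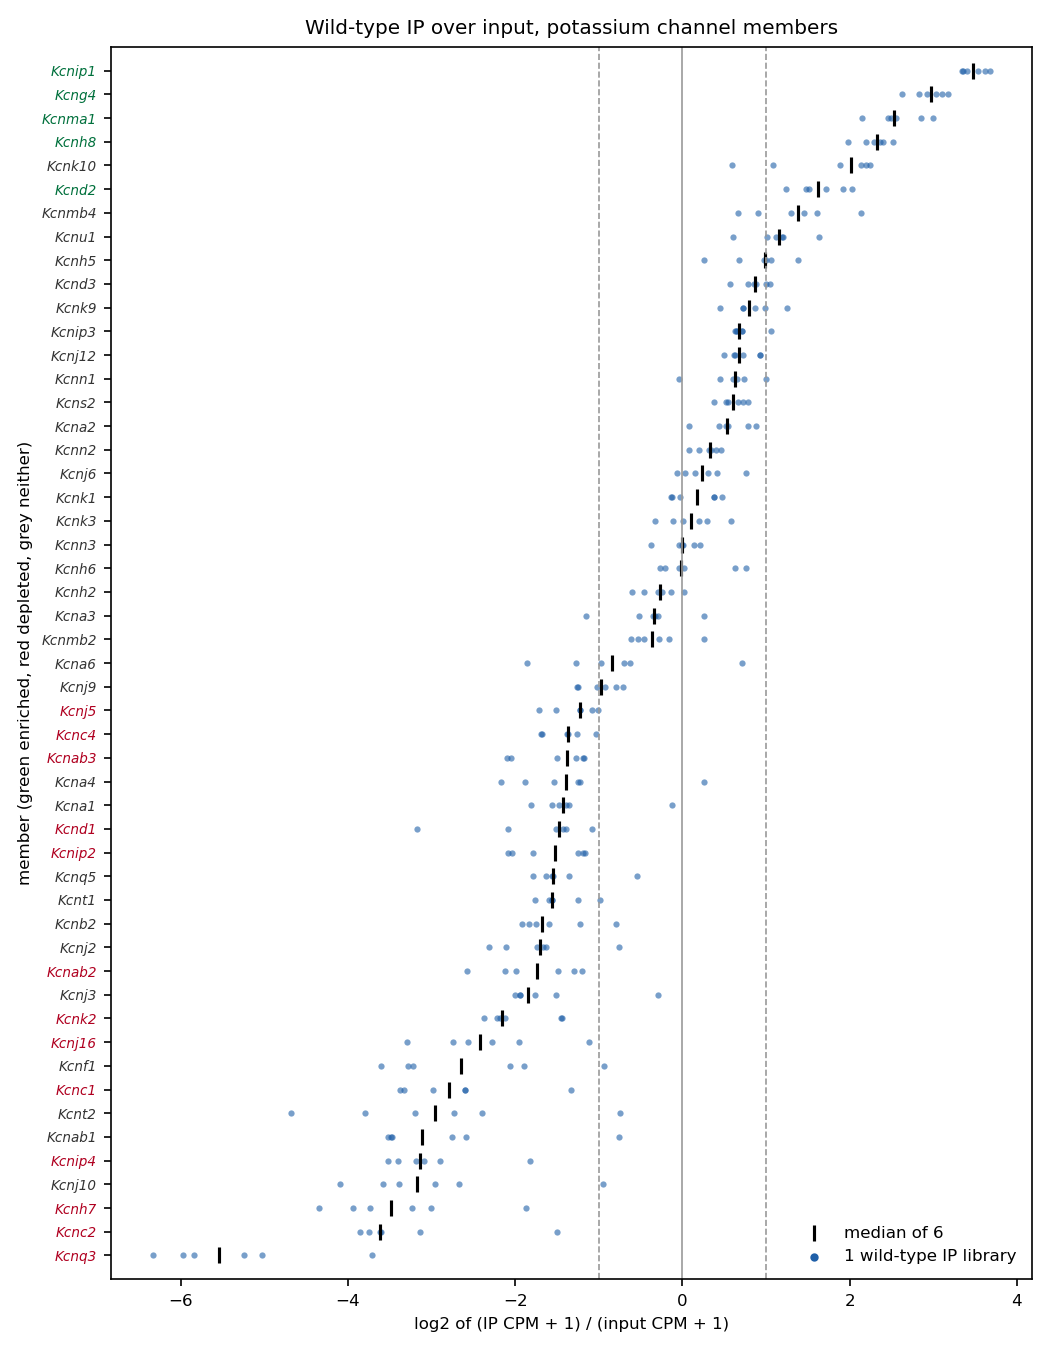
Log2 ratio of wild-type IP to input, both as CPM plus 1, for 51 members that reached the level filter, with 1 blue point per library, a black bar at the median of 6 and dashed lines at the rule's limits of -1 and 1. Green symbols were enriched and red ones depleted by the rule; Kcnip1 (3.48) and Kcng4 (2.97) stand at the top and Kcnq3 (-5.54) at the bottom.

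The BK channel held the most counts of the family. Kcnma1 had 1356, 1769 and 2446 CPM (lowest, median and highest) in wild-type IP and 306 CPM in the input. Every IP library lay above the input, and the median log2 ratio was 2.53 (5.77-fold), with libraries from 2.15 to 3.00. Its auxiliary subunits differed among themselves. Kcnmb4, the beta subunit typical of neurons, had 10.5, 17.9 and 31.0 CPM in IP and 6.25 CPM in the input, a median log2 ratio of 1.38 that missed the rule because the lowest library had 0.67. Kcnmb2 had 4.55 to 9.15 CPM in IP and 7.51 CPM in the input, on both sides of a ratio of 1, and Kcnmb1 and Kcnmb3 had medians of 0.162 and 0.0273 CPM in IP. Kcnmb4 shares exon sequence with Kcnmb4os1 and Kcnmb4os2 on the other strand. Of the antisense pair, Kcnmb4os2 had 1.25 to 5.83 CPM in IP.

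A gene outside the family stood with Kcnma1. Lrrc55, a leucine-rich repeat protein that acts as a gamma subunit of BK channels, had 1777, 1864 and 2738 CPM in wild-type IP and 181 CPM in the input, a median log2 ratio of 3.35 with libraries from 3.29 to 3.91. It belongs to a list of 22 genes known to bind or assemble with potassium channels, of which 18 reached the level filter. Of these, 2 were enriched, Lrrc55 and Dpp6, and the list's median log2 ratio was 0.15.

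Subunits of A-type channels, which open transiently at voltages below threshold and delay the next spike, were split by member. Kcnd2 had 310, 404 and 538 CPM in wild-type IP and 131 CPM in the input, a median log2 ratio of 1.62. All 6 libraries lay above the input by the rule's limit. Kcnd3, its close relative, had 189 to 265 CPM in IP and 127 CPM in the input (0.87), above the input in every library but short of the rule. Kcnd1 was depleted, with 0.976 to 7.47 CPM in IP and 16.9 CPM in the input (-1.47), a call it lost with Rn45s left out.

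The calcium-binding partners of these pores differed even more. Kcnip1 had 883, 964 and 1110 CPM in IP and 85.6 CPM in the input, a median log2 ratio of 3.48 (11.1-fold) that ranked 60 of 11131 genes. Kcnip3 had 192 to 257 CPM in IP and 123 CPM in the input (0.68). Kcnip4 went the other way, with 17.2, 22.6 and 57.8 CPM in IP and 207 CPM in the input (-3.14), and Kcnip2 had 1.28 to 3.31 CPM against 8.68 CPM (-1.52). Kcnip1 made up a median of 84.0% of the subfamily's CPM per kb in wild-type IP and 24.6% in the input, whereas Kcnip4 made up 1.39% and 45.7%. Dpp6, a single-pass membrane protein that speeds A-type channels, had 388, 425 and 447 CPM in IP and 147 CPM in the input (1.52). Its relative Dpp10 had a ratio of 0.67 and was not called.

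Kcnb2, a delayed rectifier of the kind that repolarises the cell body during repeated firing, had 11.5 to 26.3 CPM in IP and 46.4 CPM in the input (-1.68). It lay below the input in every library though not by the rule, since library 1091 had -0.80.

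Kcng4 encodes an electrically silent subunit, which forms channels only together with Kcnb subunits. It had 189, 242 and 279 CPM in wild-type IP and 29.9 CPM in the input, a median log2 ratio of 2.97, with each library above 2.62. The other Kcng genes were low: Kcng1, Kcng2 and Kcng3 had medians of 1.73, 1.67 and 0.911 CPM in IP, and Kcng4 made up 98.0% of Kcng CPM per kb. Of the other silent subunits, Kcns2 had 29.9 to 40.0 CPM in IP and 22.8 CPM in the input (0.60), and Kcnf1 had 1.44 to 14.5 CPM against 28.6 CPM (-2.64, highest library -0.93). Kcns3 and Kcnv1 had medians of 0.641 and 0.103 CPM in IP. Amigo1, a membrane protein that accompanies Kcnb channels at the cell body, had a ratio of 0.46 and was not called.

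Channels of the Kcnq subfamily carry the M-current, which holds neurons back from firing and is closed by muscarinic receptors. Kcnq3 had 4.23, 8.23 and 31.1 CPM in IP and 420 CPM in the input, a median log2 ratio of -5.54, which is 46.6-fold lower. It was the fifth lowest ratio of all 11131 genes, and the highest library, 1091, still had -3.71. Every wild-type IP library thus lay far below the input. Kcnq5 had 5.54 to 14.5 CPM in IP and 21.6 CPM in the input (-1.55), below the input in every library.

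**Figure D3:**
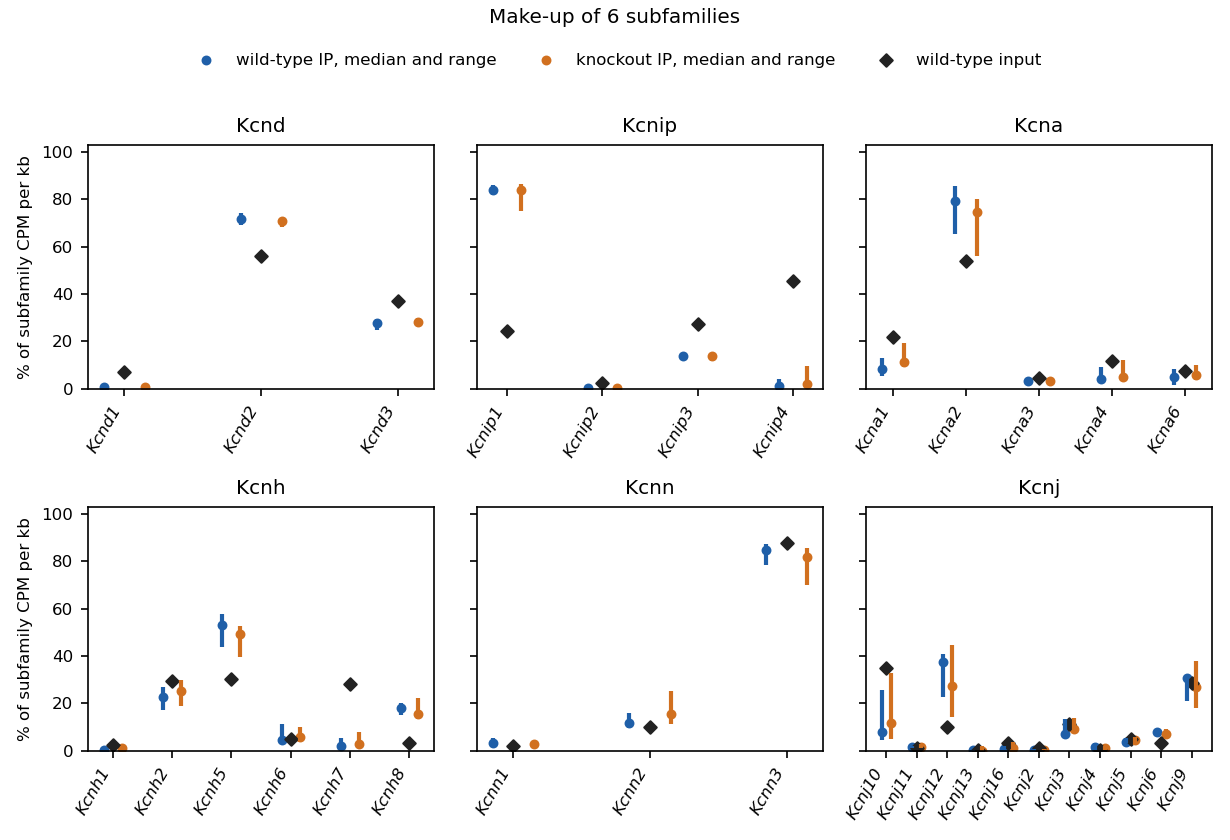
Share of each member in its subfamily's summed CPM per kb for 6 subfamilies, with the median (point) and range (line) of 6 wild-type IP libraries in blue and of 6 knockout IP libraries in orange, and the single input as a black diamond. Members under 1% in the input and in every IP library are left out; Kcnip1 takes 84.0% of its subfamily in wild-type IP at the median, whereas Kcnip4 leads in the input, and Kcnn3 leads in both.

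Fast delayed rectifiers of the Kcnc subfamily, known for brief action potentials in fast-spiking neurons, gave 3 depleted members. Kcnc2 had 22.4, 26.6 and 118 CPM in wild-type IP and 337 CPM in the input (-3.61), and Kcnc1 had 18.3, 28.1 and 78.1 CPM against 198 CPM (-2.79). In both, library 1091 was the highest and stood apart from the other five. Kcnc4 was depleted by a smaller amount (8.72 to 14.3 CPM against 30.4 CPM, -1.37), and was not called under TMM or with Rn45s left out.

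Kcnh genes, relatives of the cardiac channel Kcnh2, gave 1 call in each direction. Kcnh8 had 19.8, 25.5 and 29.3 CPM in wild-type IP and 4.28 CPM in the input (2.33, each library above 1.97). Kcnh7 had 4.95, 9.97 and 32.2 CPM in IP and 120 CPM in the input (-3.49). Kcnh5 had the highest level of the subfamily per kb (17.0 ± 4.30 CPM per kb) and a ratio of 0.99 that missed the rule, and Kcnh2 had a ratio of -0.27 with libraries on both sides of the input.

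Among Kcna genes, whose products open at low voltages along axons and near the spike initiation zone, none was called in either direction. Kcna2 had 516, 707 and 896 CPM in wild-type IP and 486 CPM in the input (0.54, above the input in every library, though the lowest was -0.01 with scaling to shared genes) and made up a median of 79.3% of the subfamily's CPM per kb. Kcna1, with which it often assembles, had 20.2, 26.5 and 67.0 CPM in IP and 73.2 CPM in the input (-1.43, highest library -0.13), and Kcna4 had -1.39 with library 1091 at 0.26. Kcna3, Kcna2 and Kcna10 lie next to each other on chromosome 3 with gaps of 63.1 and 68.1 kb, yet had 2.63, 60.5 and 0.0290 CPM per kb in wild-type IP. The beta subunits that bind Kcna channels were below the input. Kcnab2 (-1.74) and Kcnab3 (-1.38) were depleted, and Kcnab1 (-3.11) was not, because library 1091 had -0.76.

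Small-conductance calcium-activated channels, which carry the current after a spike, were led by Kcnn3 with 99.2, 128 and 149 CPM in wild-type IP and 129 CPM in the input (0.00, on both sides of the input). It made up a median of 84.9% of Kcnn CPM per kb in IP and 87.6% in the input. Kcnn2 (19.7 to 26.1 CPM against 18.6 CPM, 0.33) lay above the input in every library, except with scaling to shared genes, where the lowest was -0.08, and Kcnn1 (4.96 to 11.3 CPM against 5.14 CPM, 0.63) in most.

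Of the inward rectifiers, Kcnj12 had the highest level per kb in wild-type IP (17.1 ± 2.16 CPM per kb) and a ratio of 0.68. The G protein-gated members, which carry the slow current of GABA-B and many other inhibitory receptors, were Kcnj9 (45.5 to 67.1 CPM in IP against 110 CPM in the input, -0.98), Kcnj3 (14.2 to 48.6 against 59.6 CPM, -1.85), Kcnj6 (20.4 to 36.8 against 21.3 CPM, 0.23) and Kcnj5 (6.55 to 11.3 against 23.7 CPM, -1.22). Only Kcnj5 among these 4 was called, as depleted, and not under TMM or with Rn45s left out. Kcnj10 and Kcnj16, whose products pair in astrocytes, were low: Kcnj16 was depleted (-2.42), and Kcnj10 had 10.1, 20.2 and 96.7 CPM in IP and 188 CPM in the input (-3.17), uncalled because library 1091 had -0.95. The summed level of 15 astrocyte markers in the wild-type IP libraries was 787 to 1814 CPM, and 3139 CPM in the input. Their part in these values was not tested.

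Of the leak channels, Kcnk1 had the highest level (30.1 ± 5.94 CPM per kb) and a ratio of 0.17 with libraries on both sides of the input. Kcnk9 (0.80) and Kcnk10 (2.02) were above the input in every library, Kcnk10 with 5.74, 17.2 and 20.2 CPM against 3.47 CPM and a lowest library of 0.59. Kcnk2, a mechanically gated channel, was depleted (1.71 to 4.17 CPM in IP, log2 ratio -2.16). The sodium-activated channels Kcnt1 (-1.56) and Kcnt2 (-2.96) were below the input in every library and uncalled, since their highest libraries had -0.99 and -0.75. Kcnu1, a relative of Kcnma1 known from sperm, had 3.09 to 7.30 CPM in IP and 1.68 CPM in the input (1.16).

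The depleted count depends on 1 library. Without library 1091, which had the highest non-neuronal score of the wild-type IP libraries (3.45, against 1.93 to 2.69 for the others), 24 members were depleted, the 13 above and Kcna1, Kcna4, Kcnab1, Kcnb2, Kcnf1, Kcnj10, Kcnj2, Kcnj3, Kcnq5, Kcnt1 and Kcnt2. Over all genes, 1377 (12.4%) were then depleted by the rule, in place of 927. The enriched members numbered 7 without library 1091 (7.23% of all genes), the added one being Kcnu1. The part of other cells' RNA in these ratios was not tested.

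The knockout IP libraries, set against the same wild-type input, gave the same 6 enriched members (4.19% of 11084 genes were enriched) and 3 depleted ones, Kcnq3, Kcnh7 and Kcnip4 (5.2% of genes). Both sets of ratios share the input library, so they are given side by side only. The knockout medians were 3.45 for Kcnip1, 2.40 for Kcng4, 2.33 for Kcnma1, 2.08 for Kcnh8 and 1.56 for Kcnd2. At the other end they were -5.11 for Kcnq3, -3.03 for Kcnh7 and -2.81 for Kcnip4. Non-neuronal scores in the knockout libraries reached 4.01, and their part in the smaller number of depleted members was not tested.

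Knockout and wild-type IP were compared with edgeR's quasi-likelihood test on counts, with the 3 library sets as a term, over 14317 genes of which 70 were members. No member passed an adjusted p of 0.05, against 2 genes of all (0.014%), Gpr151 itself and Oxt. At an unadjusted p under 0.05 there were 4 members, against 3.4% of all genes, and DESeq2 also called 0 members (0.0838% of all genes), with 10 at an unadjusted p under 0.05, against 4.56% of all genes. The edgeR count of members at an unadjusted p under 0.05 was 23 of 70 without wild-type library 1091, where 8.41% of all genes had such a p. It was 15 without knockout library 1100, where 7.87% of all genes did, and 2 to 8 without any other single library. No member passed an adjusted p of 0.05 in any of these fits. In no member did the CPM values of the genotypes separate without overlap, and the share of all genes that did was not counted. The 95% interval of the log2 fold change lay within -1 and 1 for 39 of the 70 members, so for the others a change of 2-fold was not excluded at this number of libraries. The fitted log2 fold change, knockout minus wild type, was above 0 in 47 members (67.1%), against 50.9% of all genes, with a median of 0.17 against 0.00. With the non-neuronal score in the model it was above 0 in 38 members (54.3%), against 52.3% of all genes, with a median of 0.04 against 0.01. The 26 members not tested had too few counts.

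Of the 5 members with the smallest p in each direction, Kcng4 had the highest level per kb. It had 189, 242 and 279 CPM (lowest, median and highest) in wild-type IP and 102, 163 and 277 CPM in knockout IP. In the library set with 4 IP libraries per genotype, all 4 knockout values (102 to 167 CPM) lay below all 4 wild-type values (189 to 279 CPM). How many other genes separated in this way in that set was not counted, so no conclusion is drawn from it. In the 2 earlier sets, with 1 library per genotype each, the knockout library had 277 CPM against 218 CPM in the one and 213 against 233 CPM in the other. The log2 fold change was -0.53 ± 0.19 (SE; edgeR quasi-likelihood, adjusted p = 0.999). It was -0.85 in the later libraries alone (adjusted p = 0.989) and 0.11 in the earlier ones alone (adjusted p = 0.988). The interaction of genotype with library set was -0.95 ± 0.31 in edgeR (adjusted p = 1), and in that fit no gene passed after adjustment (0.0% of 14317). Kcng4 was the only 1 of 70 members under 0.05 unadjusted, where 264 of 14317 genes were. Without the 3 libraries of highest non-neuronal score its log2 fold change was -0.27.

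Kcnn2 had 19.7, 23.7 and 26.1 CPM in wild-type IP and 22.3, 29.6 and 40.3 CPM in knockout IP, and 3 of the knockout values exceeded every wild-type value. Its log2 fold change was 0.38 ± 0.13 (edgeR, adjusted p = 0.999) and 0.45 with the non-neuronal score in the model (adjusted p = 0.857). Kcnn2 is on chromosome 18, where its start lies 2.69 Mb from the end of the disrupted Gpr151 gene. The part of its position beside the disrupted gene in this value was not tested. Kcnc4 had 8.72, 11.1 and 14.3 CPM in wild-type IP and 11.6, 14.8 and 17.9 CPM in knockout IP, a log2 fold change of 0.44 ± 0.15 (edgeR, adjusted p = 0.999).

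The other named members had wider intervals or smaller differences. Kcnf1, with 1.44 to 14.5 CPM in wild-type and 2.89 to 24.0 CPM in knockout IP, had a log2 fold change of 1.09 and of 0.33 with the score in the model. Kcnh1, with 0.211 to 3.66 and 1.26 to 4.87 CPM, had 1.03 and 0.45. Kcnt1 had 0.34 and 0.16 in the same order. On the other side Kcnu1 had -0.27, Kcnn1 -0.28 and Kcng1 -0.43, with intervals that include 0. None passed after adjustment (edgeR, adjusted p = 0.999 for each), and over the alternatives fitted the smallest adjusted p of any of the 10 was 0.543.

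**Figure D4:**
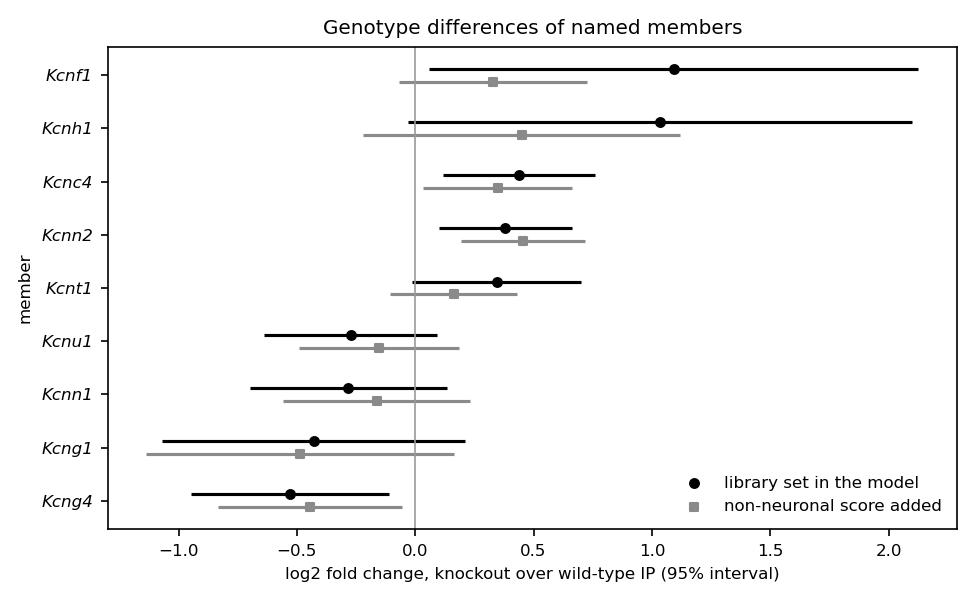
Log2 fold change of knockout over wild-type IP with its 95% interval for 9 of the members with the smallest p in either direction, from the model with library set (black) and with the non-neuronal score added (grey). Kcnf1 moved from 1.09 to 0.33 with the score and Kcnh1 from 1.03 to 0.45, whereas Kcng4 had -0.53 and -0.45.

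The members that lead in wild-type IP had the following levels in the knockout. Kcnip1 had 539, 947 and 1152 CPM in knockout IP, Kcnma1 1303, 1545 and 2233 CPM and Kcnd2 296, 388 and 492.7 CPM. Each of these ranges overlapped that of the wild-type libraries. Kcnq3 remained rare, with 5.39, 11.6 and 39.7 CPM. No gene of the partner list passed the test; Lrrc55 had a log2 fold change of -0.07 ± 0.18 and Dpp6 of 0.01 ± 0.12.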

How the data were processed

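Each library came as a deposited table that lists a raw count for each gene symbol. The tools named per the submitters' processing notes are HTSeq, STAR 2.3.0e and DESeq2, with mm10 as the genome build; settings, annotation and strand are not stated there. Summary lines without a gene entered neither totals nor tests. Tables did not list the same symbols, so genotypes were compared over the 23857 symbols of all 12 IP tables and IP with input over 22682. CPM used all gene counts of a table. CPM per kb used the union of exons in GENCODE M21 basic (GRCm38), in which all 96 members had 1 gene.

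The genotype test was run in edgeR 4.0.16 under R 4.3.3 (filterByExpr, minimum count 10, TMM, robust quasi-likelihood test, library set as a term, Benjamini-Hochberg adjustment over all genes tested, two-sided). DESeq2 1.42.0 was an alternative. Tested on simulated data, the genotype model recovered 75% of 100 genes changed by a log2 fold change of 1 and 97% at 2, over 14199 genes. The changed genes were drawn from those above 1 CPM, and no difference between library sets was simulated. Many more genes were changed than were called in the data, which eases the adjustment. These shares are therefore not the power for the members. IP and input were compared by the rule of size given with the results, with a pseudocount of 1. Sequences were read with Biopython 1.88.

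Members and gene lists were chosen with earlier results of these data known. The text names members past the genotype threshold and the 5 of smallest p in each direction, every member enriched or depleted, the member of highest CPM per kb in each subfamily, and partner genes that were called. Others were named after their values were seen. Alternatives were other scalings, filters, pseudocounts, fold limits, models and libraries left out. Scaling to the genes shared by all tables was chosen after seeing the data. Library sets follow the library numbers in the labels (682 and 683, 852 and 855, and the 8 later ones). Some members and partner genes are counted in the totals but not reported here.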

Additional observations from a re-analysis of the deposited data

Results flagged for a closer look

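Of 36 named members looked at in both groups of 6 IP libraries, 11 had 1 library far from the others. That is a gap to the nearest library above 0.625 of the group's range. These were 11 flags in 72 groups, where chance flags about 1 in 20 groups if groups are independent. Members flagged in the same library are not independent, and flags over all genes were not counted. The wild-type library 1091 was the high one in 5 of the 11 flags. There Kcnc1 had 78.1 CPM (next 31.9), Kcnc2 118 CPM (next 37.4), Kcnh7 32.2 CPM (next 14.1), Kcnip4 57.8 CPM (next 26.8) and Kcnq3 31.1 CPM (next 11.9). These 5 are depleted members, and library 1091 also had the highest non-neuronal score of the wild-type IP libraries, 3.45.

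In the knockout libraries, Kcnj16 had 12.8 CPM in library 1099 (next 4.42), the library with the highest non-neuronal score of all IP libraries (4.01). Library 1100 was high for Kcnma1, with 2233 CPM (next 1630), and for Kcnh8, with 31.1 CPM (next 22.4). Library 683 was high for Kcnu1 at 6.26 CPM (next 4.18) and low for Kcnn3 at 88.4 CPM (next 116). The wild-type library 682 had 0.928 CPM of Kcne1l (next 0.233), an auxiliary subunit gene that was under 1 CPM in every IP library.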

How the results depend on the processing

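The count of members called by genotype was 0 under every alternative run, and so was that of members with an interaction. Genes called by genotype over the whole table numbered 2, but 12 with DESeq2 and 1 with a filter of 1 CPM in 6 libraries, with later libraries only or with earlier libraries only. For the next counts, percentages give the share of all genes called in the same setting. The 6 enriched members (5.83%) became 10 at a fold limit of 1.5 (11.8%), and leaving out a wild-type library gave 6 to 7 (5.85% to 7.23%). The 13 depleted members (8.33%) became 8 with a pseudocount of 3 (6.78%), where Kcnc4, Kcnd1, Kcnip2, Kcnj16 and Kcnj5 were no longer called. The depleted members became 22 at a fold limit of 1.5 (13.4%) and 1 at a limit of 4 (1.92%). Depleted members numbered 20 with scaling to shared genes (11.1%), 25 with earlier libraries only (15.9%) and 3 with knockout IP (5.2%). An edgeR fit that assumes the lone input varies like the IP libraries gave 20 (14.1%), and Kcnab2 and Kcnj16 were not among them. Leaving out a wild-type library gave 13 to 24 (8.39% to 12.4%), the 24 without replicate 3. The fold change of Kcng4 turned from -0.53 to 0.11 in earlier libraries only. The causes were not tested. Of 220 genotype values under alternatives, 219 kept their direction and their side of the threshold; of 460 ratios, 440 moved by less than the spread between replicates. No paired analysis was possible because the labels carry no replicate numbers; the library set, with 1 library of each genotype in the first 2 sets, was already a term, and without it 0 members and 2 genes were called. Depth limits members under 1 CPM, and 1 input library limits every ratio.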
